A study of Mus musculus with 8 samples.

Results

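The proteasome genes were followed in antigen-experienced T cells from the kidney and spleen of lupus-prone mice. Members were taken by symbol: Psm, then a letter from a to g, then a digit. The rule found 49 genes of 13341 in the table. RNA was sequenced from T cells with high surface CD44, a mark of cells that have met antigen, sorted from MRL/lpr mice aged 14 weeks. The groups were kidney CD8+, kidney CD4+, spleen CD8+ and spleen CD4+ T cells, with 2 libraries each (n = 2 throughout, 8 libraries). All groups carry the lpr mutation of the death receptor gene Fas, and none of them is of a wild-type strain. The labels do not say whether replicates came from separate mice or pools, so p-values measure the spread between these libraries, which may be technical. In bulk RNA, fewer cells of a type and less RNA per cell cannot be told apart.

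The proteasome degrades proteins that carry ubiquitin. Its 20S core is a barrel of alpha subunits (Psma genes) and beta subunits (Psmb genes), of which the products of Psmb5, Psmb6 and Psmb7 hold the proteolytic sites. The 19S cap, made of ATPases (Psmc genes) and other subunits (Psmd genes), recognises ubiquitin and unfolds the substrate. Interferons induce Psmb8, Psmb9 and Psmb10, whose products replace the 3 proteolytic subunits and give the immunoproteasome, and they induce Psme1 and Psme2, the subunits of the alternative cap PA28. Lymphocytes hold much immunoproteasome without infection, and its peptides feed class I antigen presentation. Of the 49 members, 48 passed the filter on low levels (2 or more libraries at a level of 10 or above). They comprised 14 constitutive core genes and 20 genes of the 19S cap. Psma8, a core subunit of the testis, did not pass, with levels between 0 and 6.17. Psmc3ip encodes a recombination factor and met the rule by its name only, and Psmd5, Psmd9 and Psmd10 encode chaperones of cap assembly that are counted with the cap by name.

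Promoters of the inducible genes Psmb9, Psmb8 and Psme1 and of Psmb6 are shown. Psmb9 shares its promoter with Tap1, the peptide transporter gene, and the levels of these genes are set side by side below. The RefSeq promoter table (build GRCm38.p6, 250 bases before to 50 after each start) held 44 promoters of 41 members. Capitals mark a motif. On both strands, 3 motifs were searched. GAAANNGAA, the core of the interferon response element, was in 8.56% of all 32851 promoters. TTCNNNGAA, the gamma-activated site, reads the same on both strands and was in 8.30%. TGACNNNGC, the antioxidant response element core, was in 12.4%. Among the 44 member promoters the motifs were found in 7, 3 and 6. The windows of Psmb9 (chr17:34187281-34187580, minus strand) and Tap1 (chr17:34187306-34187605, plus strand) shared 275 of 300 bases and held none of the 3 motifs. Psmb8 (chr17:34197945-34198244, plus strand) held a gamma-activated site, and Psme1 (chr14:55578244-55578543, plus strand) held an interferon core on its minus strand, so its capitals show the reverse complement. Psmb6 (chr11:70525107-70525406, plus strand), the constitutive counterpart of Psmb9, held an antioxidant core. The promoters of Psmb10 and Psme2, also inducible, held none of the 3 motifs. The interferon core was also in promoters of members that are not inducible, among them Psmb3, Psmb4 and Psmc2. The gamma-activated site was also in those of Psmd2 and Psmg1, so neither motif was particular to the inducible genes. A match describes letters only and does not show binding.
Psmb9: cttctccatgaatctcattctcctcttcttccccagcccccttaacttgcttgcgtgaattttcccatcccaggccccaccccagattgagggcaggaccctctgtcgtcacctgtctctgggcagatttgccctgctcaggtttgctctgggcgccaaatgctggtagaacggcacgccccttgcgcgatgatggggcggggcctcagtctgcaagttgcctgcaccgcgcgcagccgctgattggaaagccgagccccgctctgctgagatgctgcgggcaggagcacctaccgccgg
Psmb8: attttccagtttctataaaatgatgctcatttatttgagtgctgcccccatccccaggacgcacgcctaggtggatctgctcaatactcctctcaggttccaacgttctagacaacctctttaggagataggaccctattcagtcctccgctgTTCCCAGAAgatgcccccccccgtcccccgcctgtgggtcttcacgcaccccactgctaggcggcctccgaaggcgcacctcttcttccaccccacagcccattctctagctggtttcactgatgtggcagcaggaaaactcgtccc
Psme1: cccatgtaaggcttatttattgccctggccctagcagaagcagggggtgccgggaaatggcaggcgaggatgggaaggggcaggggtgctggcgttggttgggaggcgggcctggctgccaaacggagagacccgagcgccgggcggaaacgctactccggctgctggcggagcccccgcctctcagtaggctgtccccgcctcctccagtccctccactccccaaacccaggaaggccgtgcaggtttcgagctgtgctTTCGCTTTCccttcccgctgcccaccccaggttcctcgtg
Psmb6: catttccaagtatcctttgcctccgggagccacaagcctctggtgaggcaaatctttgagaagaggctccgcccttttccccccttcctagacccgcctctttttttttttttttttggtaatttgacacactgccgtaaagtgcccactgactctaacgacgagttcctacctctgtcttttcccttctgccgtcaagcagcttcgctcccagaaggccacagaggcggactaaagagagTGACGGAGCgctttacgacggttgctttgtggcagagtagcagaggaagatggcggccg

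Levels are the deposited normalized counts, and 1 read was worth 0.554 to 1.04 of a level. Libraries held 7477544 to 11169003 reads. The sorting markers followed the labels, with Cd8a at 12159 to 18556 in the CD8+ libraries and 1.11 to 103 in the CD4+ libraries. RNA of other cells differed by organ and, for macrophage and class II genes, by cell type. The summed level of 12 proximal tubule genes was 6100 to 24434 in the kidney libraries and 87.5 to 543 in the spleen libraries, where 9 to 11 of the 12 were at 0. The 8 neutrophil genes summed to 0 to 29.6 in kidney and 3569 to 9099 in spleen, and the 6 erythroid genes to 9.87 to 193 in kidney and 8056 to 14782 in spleen. Macrophage genes (7) summed to 1781 to 6792 in kidney and 838 to 2247 in spleen, and 5 class II and dendritic genes to 3597 to 26395 in kidney and 2295 to 5664 in spleen. Within kidney, the macrophage sum was 2353 and 1781 in CD8+ cells against 6792 and 6507 in CD4+ cells, and the class II sum 5802 and 3597 in CD8+ cells against 26395 and 14865 in CD4+ cells. Within spleen, the class II sum was 2295 and 2834 in CD8+ cells against 5664 and 4616 in CD4+ cells. The 4 B cell genes in the table summed to 182 to 247 in kidney and 368 to 978 in spleen. Macrophages and dendritic cells also express inducible proteasome subunits. The part of these cells in the differences below was not tested.

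The members most abundant per length were core and inducible genes, though some core genes stood below cap genes. On the scale of level per kilobase of annotated transcript, Psmb1 stood first at 9548 ± 2532 (mean ± SD over 8 libraries), followed by Psme2b at 8630 ± 2248, Psme1 at 7758 ± 1859, Psmb8 at 7672 ± 2157 and Psmb3 at 6938 ± 2373. Those SDs are larger than the gaps between neighbours. Per coding length Psmb8 came first at 15030. The constitutive partner of Psmb8, Psmb5, had 1660 per kilobase of transcript. The core gene Psmb4 had 371, below the cap genes Psmc4 at 1500 and Psmc1 at 694. At the low end stood Psme4 at 12.04, Psmd3 at 18.9 and Psmd5 at 22.9 per kilobase. Psme4 encodes PA200, a cap of its own, and Psmd3 a non-ATPase cap subunit. Psme3, the gamma subunit of the nuclear PA28 cap, also stood low at 49.7 per kilobase. The median over core genes exceeded that over cap genes 2.81- to 3.93-fold in 7 libraries and 14.5-fold in kidney CD4+ replicate 2.

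Psmb8 encodes the inducible chymotrypsin-like subunit (chromosome 17, 34334666 to 34338399, plus strand, mm9). Its level was 17088 and 14852 in kidney CD8+ cells, 13000 and 4818 in kidney CD4+ cells, 12070 and 12656 in spleen CD8+ cells, and 12427 and 13006 in spleen CD4+ cells. The kidney CD8+ libraries lay above all others, and kidney CD4+ replicate 2 lay far below. Psmb9, the inducible counterpart of Psmb6 (chromosome 17, 34318932 to 34324697, minus strand), read 4464 and 3817 in kidney CD8+, 2601 and 5690 in kidney CD4+, 3156 and 3057 in spleen CD8+ and 3311 and 3694 in spleen CD4+ cells. Here the same kidney CD4+ replicate 2 was the highest library and replicate 1 the lowest. Psmb10, the inducible counterpart of Psmb7 (chromosome 8), read 4435 and 4141 in kidney CD8+, 2880 and 4568 in kidney CD4+, 4452 and 4772 in spleen CD8+ and 3616 and 4034 in spleen CD4+ cells. Its CD8+ libraries lay above the CD4+ ones in spleen and overlapped with them in kidney.

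The PA28 genes showed the same wide kidney CD4+ pair. Psme1, the alpha subunit (chromosome 14, 56196960 to 56200366, plus strand), had levels of 9729 and 8532 in kidney CD8+, 5602 and 12307 in kidney CD4+, 9292 and 9215 in spleen CD8+ and 6477 and 7859 in spleen CD4+ cells. Psme2, the beta subunit (chromosome 14, 56206278 to 56209950, minus strand), had 3984 and 3682 in kidney CD8+, 2576 and 5892 in kidney CD4+, 3940 and 3424 in spleen CD8+ and 3469 and 3735 in spleen CD4+ cells. Both genes were highest in kidney CD4+ replicate 2 and lowest in replicate 1. The coding sequence of Psme2b, which the annotation names Psme2b-ps, matches that of Psme2 at 715 of 720 bases (99.3%). Its level was 1.74 to 1.95 times that of Psme2 in every library, and since the counting is not described the split of reads between the pair is uncertain. Exons of Psmb9 overlap Tap1, those of Psmb8 overlap Gm20496, those of Psme1 overlap Fam158a and those of Psmb7 overlap Nek6, each on the opposite strand. The library kit keeps no strand, so reads from such overlaps cannot be told apart.

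**Figure D1:**
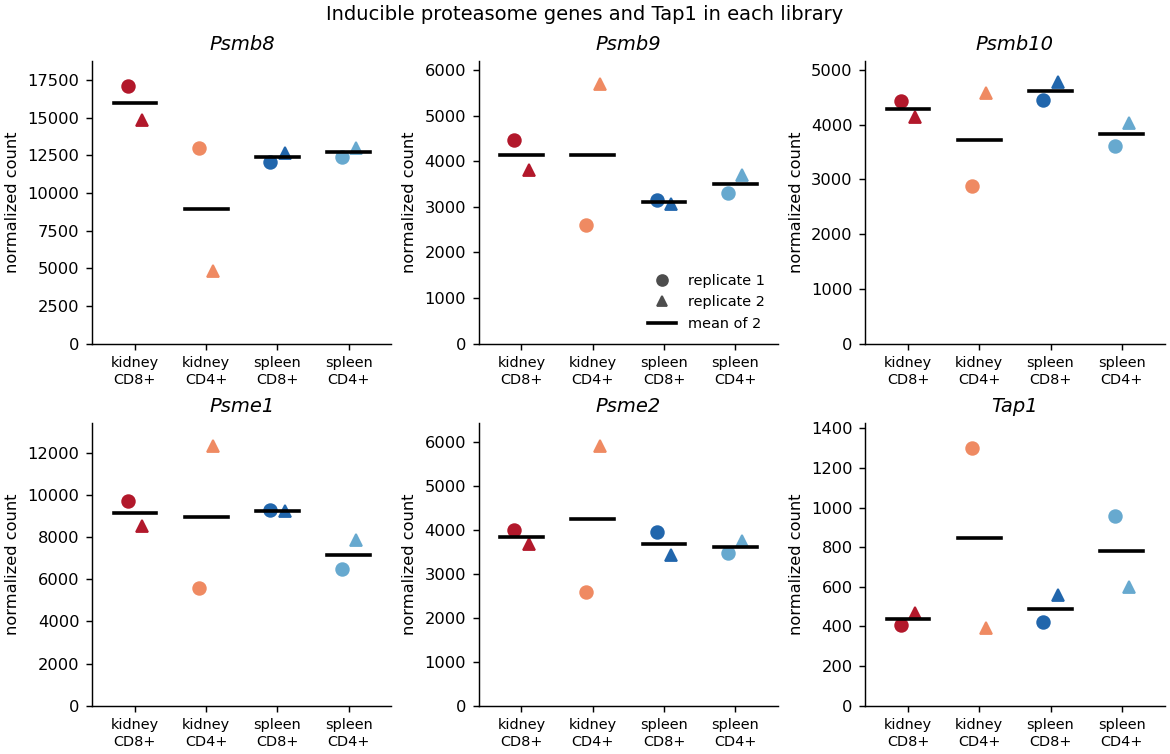
Normalized count (linear axis from 0) of the 5 inducible proteasome genes and Tap1 in each library. Points are libraries, with circles for replicate 1 and triangles for replicate 2, and bars are means of 2; kidney CD4+ replicate 2 is the highest library for Psmb9 (5690), Psme1 (12307) and Psme2 (5892) and the lowest for Psmb8 (4818) and Tap1 (392).

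In CD8+ T cells the question was whether proteasome genes differ between kidney and spleen. No member passed the test (limma, adjusted p below 0.05 over 10845 genes), against 1.55% of all genes, and 0 members had an unadjusted p below 0.05. In each of the 5 comparisons limma gave 0 members at that unadjusted p, and edgeR and DESeq2 also called 0. The core genes had a median log2 difference (kidney minus spleen) of 0.19, with 11 of 14 higher in kidney, the cap genes -0.07 with 16 of 20 lower, and the 5 inducible genes 0.06, against 0 over all genes tested. With the trend in transcript length removed, these medians were 0.06, -0.05 and -0.12, so that of the inducible genes turned negative. Psmb9 was 1.33-fold higher (log2 0.41, 95% interval -0.55 to 1.37, adjusted p = 0.814) and Psmb8 1.29-fold higher (0.37, -0.78 to 1.51, adjusted p = 0.869), and the kidney and spleen libraries overlapped for neither. Psmb10 differed by -0.10 (-0.92 to 0.71), Psme1 by -0.02 (-1.04 to 0.99) and Psme2 by 0.06 (-0.93 to 1.05).

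Among core genes in CD8+ cells, Psmb3, a non-catalytic beta subunit, had the largest difference. It read 7619 and 6280 in kidney CD8+ cells against 4794 and 4222 in spleen CD8+ cells, with no overlap. The fold was 1.54 (log2 0.62, interval -0.45 to 1.69, adjusted p = 0.731). Of the 48 members, 25 (52.1%) did not overlap between the organs, against 51.1% of all genes. Core genes that did not overlap numbered 8 of 14, or 57.1%, near the 51.1% of all genes in either direction. All 8 had kidney higher, against 26.7% of all genes with kidney higher, a direction taken after the values were seen. For the cap, 3 of 20 lay wholly higher and 6 wholly lower, together 45% against 51.1% of all genes. Of all 10845 genes, 2649 lay wholly lower in kidney. Psmd3 (50.1 and 57.8 in kidney CD8+ cells against 33.0 and 25.8 in spleen CD8+ cells, log2 0.86) had the largest positive value, at a low level. Psmc4, a cap ATPase, had 1606 and 2203 in kidney CD8+ cells against 2710 and 3090 in spleen CD8+ cells (log2 -0.62, adjusted p = 0.609, the smallest of any member). Psmd5 was at 0 and 74.0 in kidney CD8+ cells against 42.4 and 54.4 in spleen CD8+ cells, so its log2 value of -2.50 rests on 1 library with 0 reads. Psmd1, a large scaffold subunit of the cap, had 196 and 211 in kidney CD8+ cells against 289 and 345 in spleen CD8+ cells (log2 -0.63, adjusted p = 0.732).

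The spread in this test is shared with the kidney CD4+ libraries. Without both of them, a choice made after seeing the data, 745 genes (6.87%) were called in CD8+ cells. Psmb3 was then the single member called (log2 0.62 ± 0.16 SE, adjusted p = 0.0494). Psmb9 had log2 0.41 ± 0.15 SE (interval 0.07 to 0.75, adjusted p = 0.147) and Psmc4 -0.62 ± 0.18 SE (adjusted p = 0.0836). Psmd5 was called when kidney CD8+ replicate 2 was left out (adjusted p = 0.0418, with 0.562% of all genes called), which leaves only the library at 0. Psmb3 was called also without kidney CD4+ replicate 1 (adjusted p = 0.0476, with 6.8% of all genes called).

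In CD4+ T cells, again no member passed (0 of 48, with 0 at an unadjusted p below 0.05), against 0.959% of all genes. Core genes had a median log2 difference of 0.28, kidney minus spleen, with 13 of 14 higher, and cap genes -0.22 with 12 of 20 lower, against -0.08 over all genes. Psmb8 was 0.623-fold (log2 -0.68, interval -1.83 to 0.46, adjusted p = 0.760), and Psmb9 (0.14, -0.83 to 1.10), Psmb10 (-0.07, -0.89 to 0.74), Psme1 (0.22, -0.80 to 1.24) and Psme2 (0.11, -0.87 to 1.10) lay nearer 0. Psmc2, a cap ATPase, had the smallest adjusted p of the members. It read 1570 and 418 in kidney CD4+ cells against 1639 and 2001 in spleen CD4+ cells (log2 -1.16, interval -2.43 to 0.11, adjusted p = 0.604). Psmd11, at -1.06 (adjusted p = 0.717), had the next largest negative value, and Psmc3ip (0.45) and Psma6, a core alpha subunit (0.41), had the largest positive values. Members that did not overlap numbered 8 (16.7%), against 31.9% of all genes, and 6 of the 8 were lower in kidney.

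These CD4+ values depend on which kidney library is used. Without kidney CD4+ replicate 1, which leaves that arm with 1 library assumed to vary like the other groups, 24 of 48 members were called, against 21.5% of all genes in the same fit, and without replicate 2 none was, against 2.76% of all genes. The calls without replicate 1 include lower Psmb8 (log2 -1.40, adjusted p = 0.000797), lower Psmc1, a cap ATPase (-2.16, adjusted p = 0.000201), and higher Psmb6 (1.05, adjusted p = 0.00326). The core median was 0.77 without replicate 1 and -0.21 without replicate 2, and the cap median -0.68 and 0.11. The median of the 5 inducible genes was 0.70 and -0.41.

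**Figure D2:**
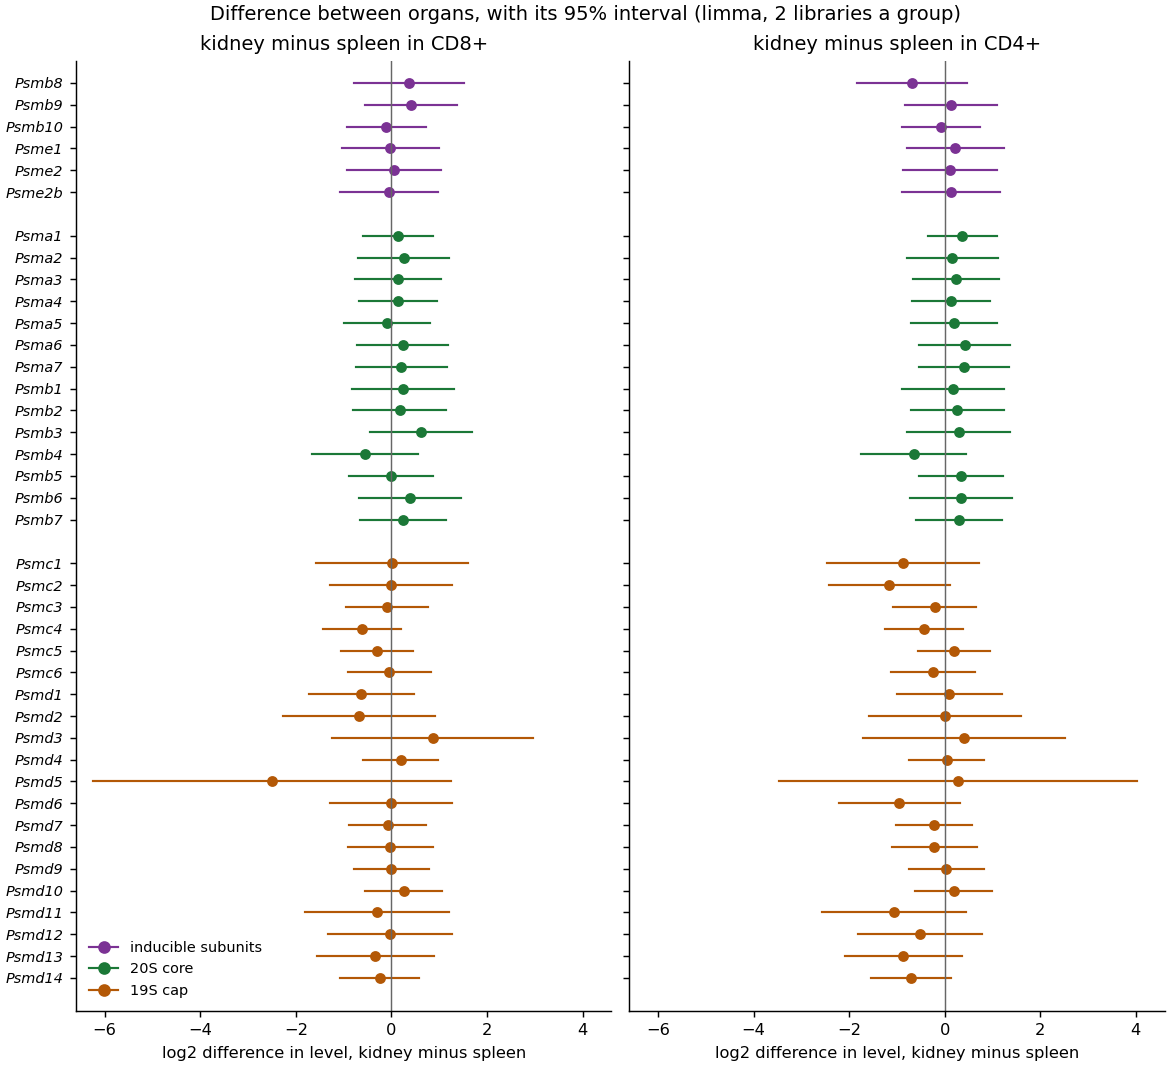
Log2 difference in level (kidney minus spleen, linear axis in log2 units) for inducible, core and cap genes in CD8+ T cells (left) and CD4+ T cells (right). Points are limma estimates from 2 libraries a group and lines are 95% intervals; each interval includes 0, and Psmd5 has the widest.

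Between the cell types in kidney, no member passed (0.203% of all genes did), with a smallest adjusted p of 0.640, that of Psmb8. Psmb8 was 2.01-fold higher in CD8+ than in CD4+ cells of kidney (log2 1.01, interval -0.13 to 2.15), and its CD8+ libraries lay above both CD4+ libraries. It read 13000 in kidney CD4+ replicate 1 and 4818 in replicate 2, against 17088 and 14852 in kidney CD8+ cells. The size of this fold thus rests largely on kidney CD4+ replicate 2. The macrophage and class II sums given above were lower in those CD8+ libraries, and their part in this difference was not tested. Psmd11 had the next largest positive value, 0.997 (adjusted p = 0.743), and Psmd5 (-2.64) and Psmd1 (-0.91) had the largest negative values. Cap genes had a median log2 difference (CD8+ minus CD4+) of 0.23, core genes -0.04 and the 5 inducible genes 0.13, against 0.03 over all genes. Members that did not overlap numbered 7 (14.6%) against 27.9% of all genes. Leaving out kidney CD4+ replicate 1 gave 13 calls among the 48 members, against 10.9% of all genes, and leaving out replicate 2 gave 7, against 12.5% of all genes. Of these, Psmb8 (1.73) and Psmc1 (2.07) were called higher in CD8+ cells without replicate 1. Psmb3 (1.13) was called higher and Psmd2, a scaffold subunit of the cap (-2.04), lower without replicate 2.

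Between the cell types in spleen, no member passed, against 0.36% of all genes. The median log2 difference (CD8+ minus CD4+) was 0.03 for core genes, -0.03 for cap genes and 0.03 for the inducible genes, against -0.05 over all genes. The cap median was 0.02 with TMM and 0.03 with median-of-ratios scaling, and the core and inducible medians were -0.02 and -0.04 with the length trend removed. Psmb10 was higher in CD8+ cells (log2 0.27, interval -0.55 to 1.09), as was Psme1 (0.38, -0.64 to 1.39), and Psmb9 was lower (-0.17, -1.13 to 0.79), each without overlap and with adjusted p = 1. The extremes were Psmc3ip (0.84) and Psmd13, a cap subunit (0.43), at the high end and Psmc2 (-0.26) and Psmg1 (-0.24) at the low end. Members that did not overlap numbered 18 (37.5%), against 45.7% of all genes. The organ difference in CD8+ cells minus that in CD4+ cells was called for no member and for 0% of all genes (362 of 10845 had an unadjusted p below 0.05). Psmb8 had an interaction of log2 1.05 (-0.57 to 2.67). Without kidney CD4+ replicate 1, which leaves 1 library in that group, the Psmb8 value was 1.77. Its level was 13000 in kidney CD4+ replicate 1 and 4818 in replicate 2, against 12427 and 13006 in spleen CD4+ cells. The size of the Psmb8 interaction thus rests on kidney CD4+ replicate 2.

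Core genes were mostly higher in kidney CD4+ replicate 2 than in replicate 1, and cap genes mostly lower. In replicate 2, 13 of 14 core genes stood above all 6 libraries of the other groups and Psmb4 stood below them, while 13 of 20 cap genes stood below and 4 above. Over all genes tested 20.6% stood above and 25.9% below. Replicate 1 had 10 of 14 core genes below and 1 above, and 7 of 20 cap genes above and 2 below. For that replicate 28.8% of all genes stood above and 18.8% below. Psmc1 read 1542 in replicate 1 and 257 in replicate 2, whereas the other 6 libraries lay between 1067 and 1170. Psmd11, a cap subunit, read 1224 and 237 with the others between 1025 and 1495. Psmb6 went the other way with 2496 and 6632, and the others lay between 3049 and 4691. Relative to the mean of the other 7 libraries, the median log2 deviation of replicate 2 was 0.74 for core and -0.68 for cap genes, and that of replicate 1 was -0.37 and 0.24. Over all genes tested the median was -0.05 in replicate 2 and 0.28 in replicate 1, so the cap median of replicate 1 lay close to that of all genes.

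**Figure D3:**
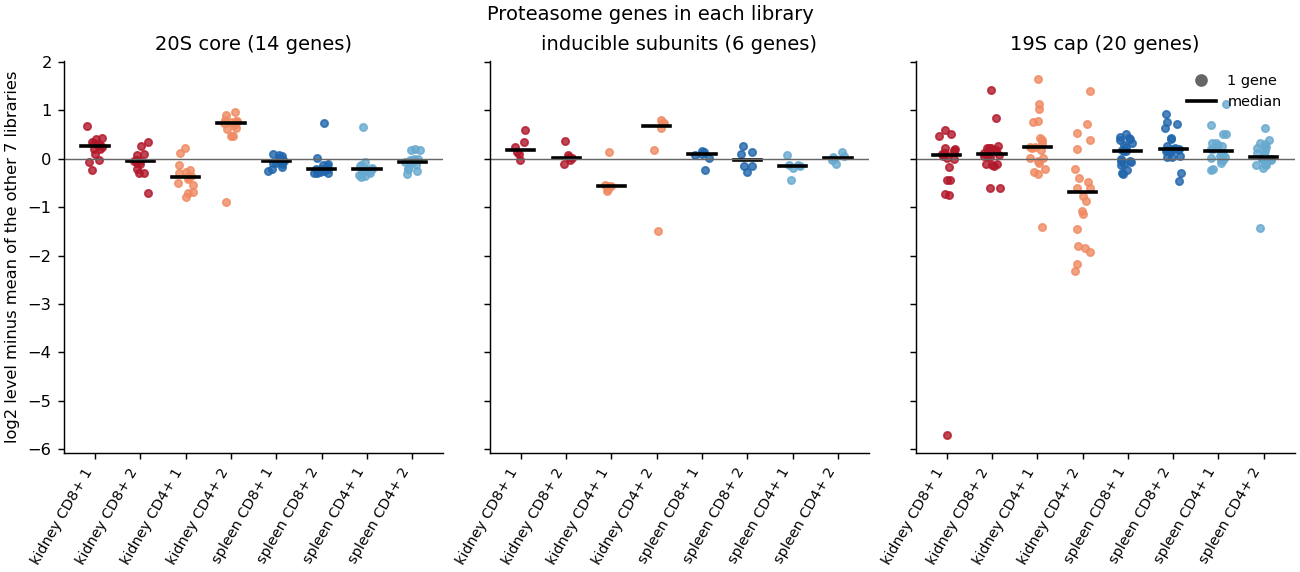
Log2 level minus the mean of the other 7 libraries (vertical axis) for each core, inducible and cap gene in each of the 8 libraries. Points are genes and bars are medians; kidney CD4+ replicate 2 has a core median of 0.74 and a cap median of -0.68.

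Transcript length moved with this split. Core transcripts had a median annotated length of 1101 nt and cap transcripts 1706 nt. The deviations of the 48 members correlated with log2 length at Pearson r = 0.52 in kidney CD4+ replicate 1 and -0.31 in replicate 2, a description across genes of 2 libraries. Over all genes tested, the median deviation of replicate 2 was 0.69 for transcripts under 1000 nt and -0.63 for those from 1500 to below 2000 nt, and of replicate 1 it was -0.63 and 0.43. From 1000 to below 1500 nt, 6 of 7 core genes (median 0.74) and 3 of 5 cap genes (0.20) stood above the mean of the others in replicate 2. Psma2 and Psma3, core genes with transcripts of 2666 and 2846 nt, stood above too, with a median of 0.69. Of the 6 cap genes of 2000 nt and over, 2 stood above (median -0.30). None of the 9 cap genes from 1500 to below 2000 nt did (median -1.46), a length range that also holds Psmb8 at 1628 nt. With each library's trend with transcript length removed, 0 members were called in each of the 5 comparisons, the same as without this correction. The median log2 difference between organs in CD4+ cells was then 0.13 for core genes, -0.06 for cap genes and -0.09 for the 5 inducible genes.

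**Figure D4:**
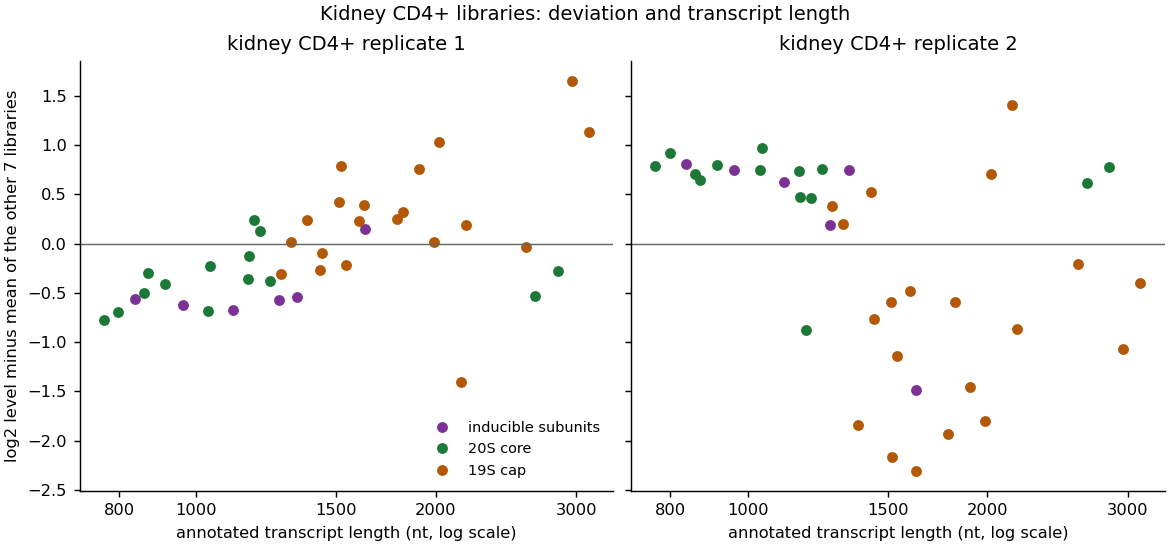
Log2 level minus the mean of the other 7 libraries against annotated transcript length (nt, log axis) in kidney CD4+ replicate 1 (left) and replicate 2 (right). Each point is a gene, coloured as core, inducible or cap; most transcripts under 1500 nt lie above 0 in replicate 2 and below 0 in replicate 1.

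Outside the kidney CD4+ pair, proteasome levels varied little. Among the 6 libraries of the other groups the highest was less than 2-fold the lowest for all 29 members with a mean level of at least 1000, with a median of 1.37. Over all 990 genes of that level, 697 (70.4%) met this and the median was 1.66. Psmc1 was the steadiest of the 29 at 1.10-fold. Over all 48 members the median was 1.43, and 41 stayed under 2-fold.

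Ratios within a library compare each inducible subunit with the one it replaces. Per transcript length, Psmb8 over Psmb5 was 5.35 and 6.65 in kidney CD8+ cells, 5.87 and 1.23 in kidney CD4+ cells, 4.48 and 4.74 in spleen CD8+ cells and 5.29 and 5.58 in spleen CD4+ cells. Apart from kidney CD4+ replicate 2 the ratio thus stayed between 4.48 and 6.65. Psmb9 over Psmb6 was 0.567 and 0.509 in kidney CD8+, 0.621 and 0.511 in kidney CD4+, 0.513 and 0.540 in spleen CD8+ and 0.647 and 0.653 in spleen CD4+ cells. Both kidney CD4+ libraries lay inside the range of the other groups. Psmb10 over Psmb7 was 3.04 and 3.42 in kidney CD8+, 2.92 and 2.37 in kidney CD4+, 3.70 and 4.61 in spleen CD8+ and 3.43 and 3.41 in spleen CD4+ cells. For Psmb10 over Psmb7 the kidney libraries lay below the spleen libraries in both the CD4+ and the CD8+ cells. Its highest value, 4.61, was in spleen CD8+ cells, though kidney CD8+ replicate 2 (3.42) stood at the level of spleen CD4+ cells. Psmb8 over Psmb5 went the other way in CD8+ cells, with kidney above spleen without overlap. Psmb9 over Psmb6 lay lower in kidney in CD4+ cells without overlap. How often other gene ratios fail to overlap was not computed. Psme1 over Psme2 averaged 1.95 ± 0.22 over the 8 libraries. The absolute size of these ratios depends on the annotated lengths: per coding length Psmb8 over Psmb5 averaged 8.76, against 4.90 per transcript length, and Psmb9 over Psmb6 averaged 1.04, against 0.570.

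**Figure D5:**
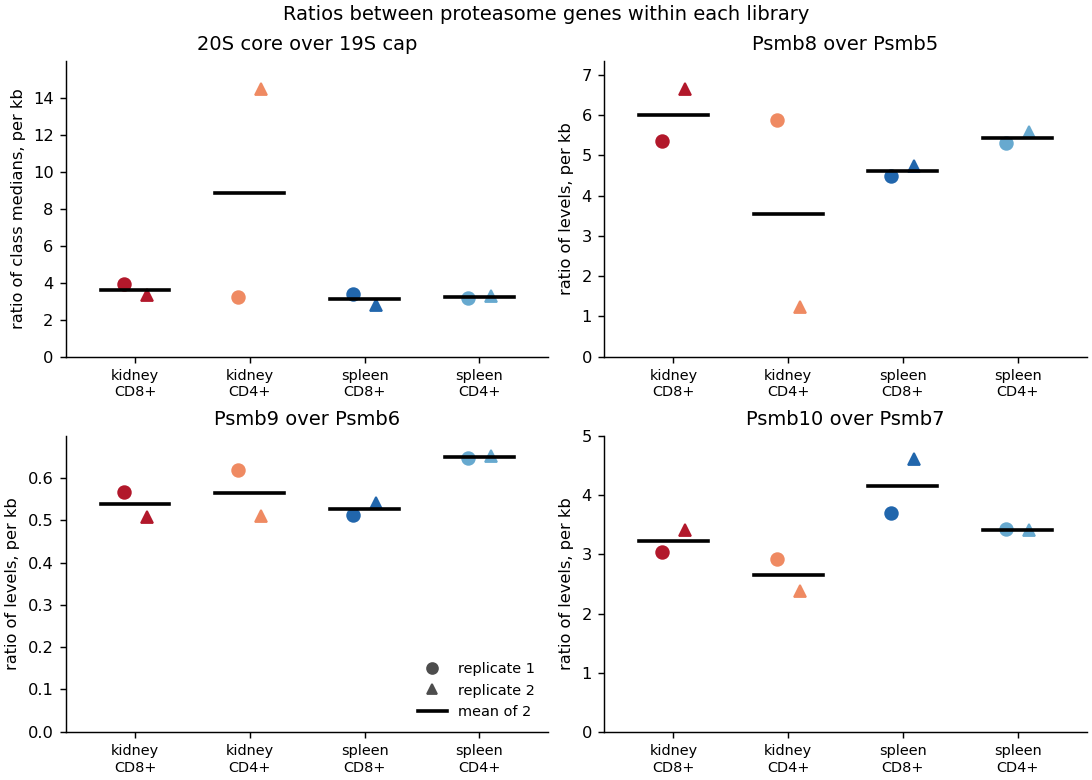
Ratio of class medians (core over cap) and of inducible to constitutive subunits, per kilobase of transcript, within each library (linear axes from 0). Circles are replicate 1, triangles replicate 2 and bars the mean of 2; kidney CD4+ replicate 2 stands apart for core over cap (14.5) and for Psmb8 over Psmb5 (1.23) but not for Psmb9 over Psmb6 (0.511).

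The remaining members were the other caps, the inhibitor and the assembly factors. Psmf1, the proteasome inhibitor PI31, read 705 and 955 in kidney CD8+, 937 and 918 in kidney CD4+, 936 and 1075 in spleen CD8+ and 979 and 1067 in spleen CD4+ cells. Its kidney CD4+ replicates stood close to each other. Psme3 read 109 to 173 and Psme4 50.4 to 96.6 over all libraries. Psmg3, an assembly chaperone of the core, read 424 and 365 in kidney CD8+ cells against 261 and 230 in spleen CD8+ cells (log2 0.68, interval -0.60 to 1.97, adjusted p = 0.750), and 160 and 571 in kidney CD4+ cells against 247 and 222 in spleen CD4+ cells. The other assembly chaperones, Psmg1, Psmg2 and Psmg4, ranged over 43.0 to 141, 408 to 786 and 97.8 to 316.

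Genes that work with the proteasome but lie outside the rule were described from lists. Of the 15 genes of class I presentation none was called, with 12 lower in kidney CD8+ than in spleen CD8+ cells (median log2 -0.20) and 13 lower in kidney CD4+ than in spleen CD4+ cells (median -0.32). The CD4+ median rests on replicate 2: relative to the mean of the other 7 libraries the list had a median log2 deviation of 0.87 in kidney CD4+ replicate 1, with 14 of 15 above, and -1.14 in replicate 2, with 13 of 15 below. Tap1 read 408 and 469 in kidney CD8+, 1300 and 392 in kidney CD4+, 422 and 557 in spleen CD8+ and 958 and 600 in spleen CD4+ cells. In the kidney CD4+ pair Tap1 ran opposite to Psmb9, with which it shares its promoter: replicate 1 was the highest library for Tap1 and the lowest for Psmb9, and replicate 2 the reverse. Most of the list moved as Tap1 did. In replicate 1, 10 of 15 stood above all 6 libraries of the other groups and 0 below, against 28.8% and 18.8% of all genes. In replicate 2, 12 of 15 stood below and 2 above, against 25.9% and 20.6%. The part of transcript length in this contrast was not tested. Irf1, an interferon-induced factor known to act on the promoter between Psmb9 and Tap1, read 1362 and 2385 in kidney CD8+ cells against 3361 and 4074 in spleen CD8+ cells (log2 -1.04, adjusted p = 0.667). It was called lower in kidney CD8+ cells without the kidney CD4+ libraries (adjusted p = 0.0453), where Psmb9 was higher without passing (log2 0.41). Tapbpl, a tapasin-related peptide editor, differed by log2 -1.29 (kidney minus spleen) in CD4+ cells and by 1.47 (CD8+ minus CD4+) in kidney, with overlapping libraries and limma adjusted p of 0.741 and 0.719. Tap2, the partner of Tap1 in the peptide transporter, differed by -0.71 (CD8+ minus CD4+) in spleen without overlap (adjusted p = 1). Erap1, which trims peptides for class I molecules, had an organ difference in CD8+ cells minus that in CD4+ cells of -1.09 (adjusted p = 0.999).

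Of the list of 19 partners (ubiquitin genes, shuttle factors, deubiquitinases and Pomp, which assembles the core), 18 were tested and none was called, with 13 of 18 higher in kidney CD8+ than in spleen CD8+ cells (median log2 0.40) and 6 of 18 higher in kidney CD4+ than in spleen CD4+ cells (median -0.02). Usp14, a deubiquitinase of the cap, differed by log2 -1.03 (kidney minus spleen) in CD8+ cells with overlapping libraries (limma adjusted p = 0.728). Between the cell types of kidney, CD8+ minus CD4+, the partners of smallest p were Zfand5 at -0.78 and the shuttle factor Ubqln1 at 0.69, without overlap (adjusted p = 0.743 and 0.744). In spleen they were Zfand5 at -0.68 and Txnl1, a thioredoxin-like protein bound to the cap, at -0.44 (adjusted p = 1 for both). Ubqln1 (0.87) and Adrm1, a ubiquitin receptor of the cap (-0.996), led the list for the organ difference in CD8+ cells minus that in CD4+ cells (adjusted p = 0.999 for both). Outside the rule, the genes whose levels followed Psmb9 most closely over the 8 libraries were Dynlrb1, a dynein light chain (Pearson r = 0.994), Gabarap, an autophagy protein (0.988), Srp14, a subunit of the signal recognition particle (0.988), Selk (0.983) and Mocs2 (0.982). Within the rule, Psmb1 (0.955) and Psmb7 (0.953) came closest. Without the kidney CD4+ pair, which spans the range of Psmb9, the r over 6 libraries was 0.984, 0.991, 0.961, 0.950 and 0.970 for those 5 genes and 0.827 and 0.866 for Psmb1 and Psmb7. Over those 6 libraries Psmb8 had the highest r of the members, 0.929, against -0.560 over all 8, so the order of members depends on the kidney CD4+ pair.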

How the data were processed

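RNA of sorted T cells was made into libraries with the SMART-Seq v4 kit and reads were aligned to mm9, per the labels. Per the submitters' processing notes the tools included STAR 2.5.3 and TopHat2 2.1.0. The sources used here do not name the counting tool or the gene models behind the counts. A single table was deposited by the authors, of normalized signal (read counts divided by 1 size factor per library), with 8 columns, all used. Whole reads were recovered for 100% of values (tolerance 1e-06). The main test was limma 3.58.1 (R 4.3.3), run on log2(level + 1) over all 8 libraries (cell means, 2-sided, 4 residual degrees of freedom, 8.48 with those borrowed across genes), with Benjamini-Hochberg adjustment over 10845 genes within each of 5 comparisons, and calls at an adjusted p below 0.05. This scale understates the change of low genes. Intervals cover 95% and are not adjusted. Count tests on the recovered reads used edgeR 4.0.16 and DESeq2 1.42.0. The limma, edgeR and DESeq2 fits were tried on simulated counts with the same set spread for all genes and libraries. That simulation held neither the wide kidney CD4+ pair nor a trend with length, so it does not show how the tests behave with them. Of the 13341 symbols, 12944 matched GENCODE vM1 (the mm9 assembly), which gave positions and the transcript with the longest coding sequence, and 97.9% of tested genes had a length. In all, 282 genes held the same values as another gene. Promoters are from RefSeq (GRCm38.p6).

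The members, lists and tests were chosen with earlier results of these data known. The rule for named genes took the 5 inducible subunits, their counterparts, the other caps, called members, the 2 largest rises and falls per comparison, the 2 genes of smallest p per list and the 5 genes most like Psmb9; some genes it named are not reported here. Psma2, Psma3, Psmb1, Psmb3, Psmb4, Psmc1, Psmc4, Psmd2, Psmg2 and Psmg4 lie outside it and were named after their values were seen. Psma8, Psme2b, Shfm1 and Pomp also lie outside that rule and are described with their values. Alternatives tried were other pseudocounts, filters, scalings, tools, weights, spreads and length corrections, each library left out and the replicate number as a block.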

Additional observations from a re-analysis of the deposited data

How the results depend on the processing

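The count of called members was 0 in all 5 comparisons under the other pseudocounts, filters, scalings, edgeR, DESeq2, library weights and the length correction, and in the 4 group comparisons with the compared libraries alone. The library weights were the same for both libraries of a group (0.239 for each kidney CD4+ library). They therefore could not give 1 replicate less weight than the other. At an unadjusted p below 0.05 stood 8 members with the compared libraries alone and 2 with library weights in the CD8+ organ comparison, 1 with library weights in the CD4+ one, 3 under DESeq2 and 1 with the length correction (with or without the replicate block) between the cell types in kidney, and 1 with the compared libraries alone in spleen. Over all genes the calls of limma, edgeR and DESeq2 numbered 104, 66 and 352 (kidney minus spleen, CD4+), 168, 99 and 486 (CD8+), 22, 24 and 215 (CD8+ minus CD4+, kidney) and 39, 45 and 234 (spleen), and 0, 0 and 12 for the difference between organ effects. Leaving out each library in turn gave 0 to 24 called members for the CD4+ organ comparison, 0 to 1 for the CD8+ one, 0 to 13 between cell types in kidney, 0 to 0 in spleen and 0 to 6 for the difference between organ effects. The upper ends of the CD4+ organ, kidney cell-type and interaction ranges came from the fit without kidney CD4+ replicate 1. That fit leaves 1 library in the group, and it called more of all genes than the full fit in each of these comparisons. With both kidney CD4+ libraries left out, the count of called members was 1 for the CD8+ organ comparison and 0 in spleen. Leaving out each library in turn, core medians ranged over -0.21 to 0.77 (CD4+ organ), -0.51 to 0.35 (cell types in kidney) and -0.55 to 0.35 (difference of organ effects), cap medians over -0.68 to 0.11, -0.11 to 0.48 and -0.27 to 0.52, and inducible medians over -0.41 to 0.70 and -0.43 to 0.57 for the first and second of these. In the CD8+ organ comparison the core stayed between 0.06 and 0.35 and the cap between -0.20 and -0.05. Not divided by length, Psmb8 over Psmb5 was 9.16, Psmb9 over Psmb6 0.957 and Psme1 over Psme2 2.26, and per coding length, an alternative added after seeing the data, the first and second were 8.76 and 1.04. The differences between replicates 1 and 2 correlated little between groups (from -0.15 to 0.06 over all genes tested). With 2 libraries a group this cannot decide whether a replicate number stands for a shared source. With the replicate block 0 members were called in each comparison. Of 3604 values of single genes under alternatives, 252 changed sign with no call on either side and 0 were called with the opposite sign. With 2 libraries a group, the 95% intervals of the inducible genes in the CD8+ organ comparison reached 0.71 to 1.51 on the higher side.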

Other observations

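Psmc3ip, which met the rule by name and encodes a partner of meiotic recombinases, had levels of 46.7 and 61.7 in kidney CD8+ cells, 40.9 and 150 in kidney CD4+ cells, 104 and 103 in spleen CD8+ cells and 38.8 and 84.5 in spleen CD4+ cells. Its kidney CD8+ libraries lay wholly below the spleen CD8+ libraries (log2 -0.93, limma adjusted p = 0.728). Shfm1, a small cap subunit that the rule does not hold, read 3589 and 3122 in kidney CD8+ cells, 1375 and 4078 in kidney CD4+ cells, 2926 and 2244 in spleen CD8+ cells and 2589 and 2696 in spleen CD4+ cells. Kidney CD4+ replicate 2 was its highest library and replicate 1 its lowest. Pomp, the assembly factor of the core, read 3532 and 2924 in kidney CD8+ cells, 1793 and 4832 in kidney CD4+ cells, 2947 and 2530 in spleen CD8+ cells and 2674 and 3314 in spleen CD4+ cells, with the same extremes.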
